A study of Mus musculus with 6 samples.

Results

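The 9 genes described here, Hlf, Mecom, Prdm16, Mllt3, Meis1, Erg, Tal1, Lmo2 and Gfi1b, encode regulators of blood stem cells and were followed in sorted long-term haematopoietic stem cells (LT-HSC) with and without Itpkb. They were chosen by name, as stem cell transcription factors, by a rule that uses no measured value but was written with earlier results of these data known, and all 9 symbols were found in the deposited table, 9 of the 12008 genes that were tested there. The cells came from C57BL/6 mouse bone marrow and were sorted as Lin-, Sca-1+ and Kit+ cells (LSK) that were CD34-, CD150+, CD48- and Flk2-. The tested genotype, IPTKB-/- in the labels and Itpkb-/- here, carries the ENU-induced Ms T-less allele, and the WT mice were litter mate controls. Each genotype has 3 libraries, each from a pool of 4 age-matched mice; the age was not given. Itpkb encodes inositol-trisphosphate 3-kinase B, which phosphorylates inositol trisphosphate. The allele comes from a chemical mutagen, acts in every cell of the mouse, and need not remove the transcript.

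LT-HSC stay mostly quiescent and are held in that state by a small network of transcription factors. Tal1, Lmo2 and Erg belong to a group of factors that bind many stem and progenitor cell enhancers together, often as a complex in which Lmo2 bridges DNA-bound proteins. Mecom, Prdm16, Hlf and Meis1 are each needed in mice for the stem cell pool to persist or to repopulate a host, and Gfi1b is a repressor that limits the number and the exit of stem cells from the marrow. Mllt3 reads histone marks at transcribed genes and links them to transcription elongation.

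Of the 9 genes, 4 fell in Itpkb-/- LT-HSC: Mllt3, Hlf, Mecom and Prdm16 stood between 49.8% and 61.8% of the WT mean. The other 5, Erg, Meis1, Lmo2, Gfi1b and Tal1, did not pass the test, and none rose. Values are normalized CPM, that is reads per gene scaled by the authors to a common library size. Differences are Itpkb-/- minus WT on a log2(value + 1) scale. Genes with a limma adjusted p up to 0.15 count as called, the false discovery limit that the series design text gives. By that rule 389 of 12008 genes tested were called lower, 3.24%, and 272 were called higher, 2.27%. At a limit of 0.05, which 0.899% of genes passed as lower, 2 of the 9 were called, Hlf and Mllt3. All 9 log2 differences were negative, as were 49.8% of those of all genes, and the median was -0.34 against 0.00183 over all genes tested. In bulk libraries fewer cells that express a gene and less RNA per cell cannot be told apart.

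**Figure D1:**
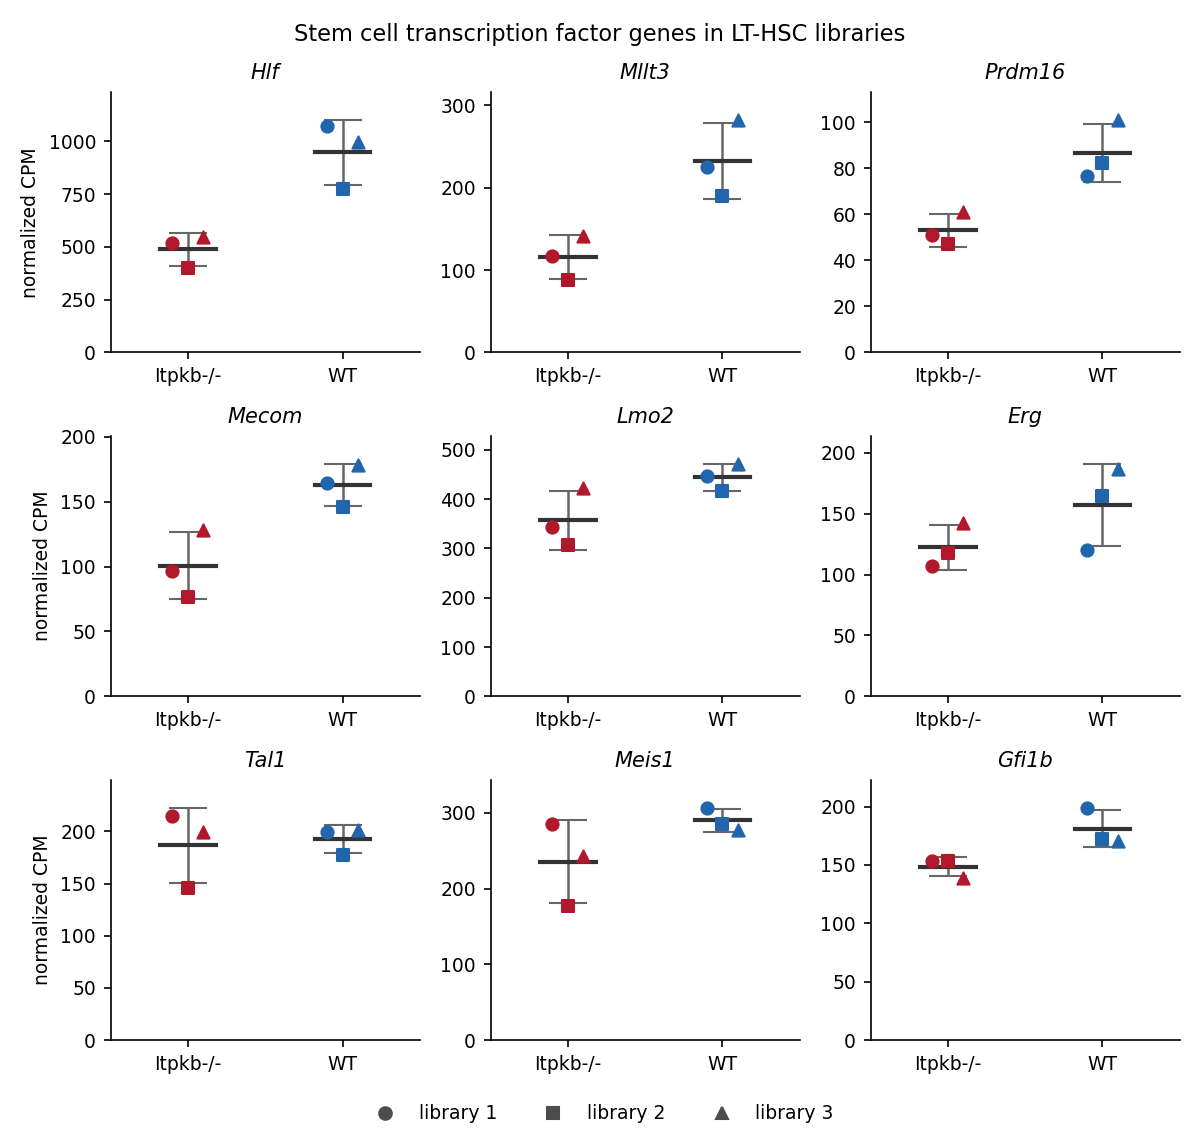
Normalized CPM of each of the 9 genes (vertical axes, each from 0) in the 3 Itpkb-/- and 3 WT libraries, with the mean (thick line) and SD (whiskers); symbols give the library number. The genotypes do not overlap for Hlf, Mllt3, Prdm16, Mecom and Gfi1b, and Tal1 lies at 146 to 215 in Itpkb-/- libraries and at 177 to 202 in WT libraries.

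The sequences just upstream of the genes that fell are shown because these 4 moved the same way and their promoters could be compared. Each run is the 250 bases before the annotated start of transcription, 5′ to 3′ on the gene's strand, from RefSeq on GRCm38, the assembly also named mm10. The windows are chr11:90390918-90391167 for Hlf, chr4:88033408-88033657 for one of the starts of Mllt3, chr4:154636874-154637123 for Prdm16 and chr3:30509760-30510009 for one of the starts of Mecom, which lies inside the annotated locus, all on the minus strand. Capitals mark matches on either strand to 5 motifs: GATAA for the factors related to Gata2, AGGAAG for ETS factors, CANNTG for basic helix-loop-helix factors, TGACAG for Meis1 and its relatives, and TTACGTAA for PAR bZIP factors.
Hlf: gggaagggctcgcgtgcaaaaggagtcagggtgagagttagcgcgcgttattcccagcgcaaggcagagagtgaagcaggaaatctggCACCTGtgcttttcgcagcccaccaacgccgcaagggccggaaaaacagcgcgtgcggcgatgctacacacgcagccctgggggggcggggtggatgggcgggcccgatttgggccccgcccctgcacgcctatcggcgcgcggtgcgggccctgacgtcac
Mllt3: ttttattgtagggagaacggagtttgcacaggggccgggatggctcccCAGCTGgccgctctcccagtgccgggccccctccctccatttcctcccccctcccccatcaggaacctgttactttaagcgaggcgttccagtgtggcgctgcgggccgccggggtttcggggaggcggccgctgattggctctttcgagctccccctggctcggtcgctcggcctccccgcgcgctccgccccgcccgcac
Prdm16: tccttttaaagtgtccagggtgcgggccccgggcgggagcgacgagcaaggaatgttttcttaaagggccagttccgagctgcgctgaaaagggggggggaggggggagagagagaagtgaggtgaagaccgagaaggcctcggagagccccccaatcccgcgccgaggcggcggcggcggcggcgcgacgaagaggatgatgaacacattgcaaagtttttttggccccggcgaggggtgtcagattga
Mecom: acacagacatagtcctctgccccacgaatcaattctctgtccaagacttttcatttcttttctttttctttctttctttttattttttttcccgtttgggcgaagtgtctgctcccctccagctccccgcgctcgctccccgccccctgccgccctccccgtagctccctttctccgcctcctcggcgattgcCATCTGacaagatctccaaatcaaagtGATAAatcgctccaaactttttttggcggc
Hlf, Mllt3 and Mecom each hold 1 CANNTG, the E-box, in the windows shown, and Mecom also 1 GATAA, while the Prdm16 window holds no match. Mllt3 and Mecom each have another annotated start, not printed, whose window holds 3 E-boxes and 1 TGACAG for Mllt3, and 0 E-boxes, 1 TGACAG and 1 GATAA for Mecom. The Mllt3 window overlaps an exon of the antisense gene Gm12631. The printed windows of Hlf, Mllt3 and Prdm16 hold 26, 23 and 22 CpG, and that of Mecom 14, while the other windows of Mllt3 and Mecom hold 4 and 8, against a median of 6 over 32851 promoters of the same length. RefSeq starts were found for 8 of the 9 genes, all but Lmo2, and gave 13 windows, of which 7 held an E-box, against 66.2% of all promoters. GATAA was in 5 of the 13 (22.6% of all promoters), TGACAG in 3 (15.9%), AGGAAG in 1 (29.5%) and TTACGTAA in 0 (0.113%). Neighbouring matches may share bases, and a match or its absence says nothing of binding, which was not measured.

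Hlf encodes a PAR bZIP factor that keeps mouse stem cells quiescent. It lies on chromosome 11 (90336536 to 90390895, minus strand, GENCODE M21 on mm10). Its normalized CPM was 518, 400.6 and 548 in Itpkb-/- libraries 1, 2 and 3, against 1071, 775 and 996 in WT libraries 1, 2 and 3. The highest Itpkb-/- library lay below the lowest WT library. Itpkb-/- libraries averaged 489 ± 77.9 and WT libraries 947 ± 154 (SD, n = 3 each); on the log2 scale this was -0.95 (SE 0.16; limma, adjusted p = 0.0224). Of the 6 fits that leave out 1 library, 5 kept the call. Without WT library 3 the adjusted p was 0.159, at a log2 difference of -0.91.

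Mllt3 (chromosome 4, 87769925 to 88033364, minus strand), also known as AF9, is a YEATS-domain protein that binds acylated histone H3 and recruits Dot1l and the super elongation complex; in human cord blood it maintains stem cell self-renewal. Its levels were 117, 88.4 and 142 normalized CPM in the Itpkb-/- pools, against 225, 190.4 and 282 in WT libraries. Again no libraries overlapped. Itpkb-/- libraries averaged 116 ± 26.8 and WT libraries 233 ± 46.5 (SD, n = 3 each), and the log2 difference of -1.01 (SE 0.19; limma, adjusted p = 0.0327) was the most negative of the 9. The call was lost without WT library 3 (adjusted p = 0.1998), where the log2 difference was -0.86, and kept in the other 5 such fits.

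Mecom and Prdm16 encode related zinc-finger proteins with a PR domain that act with CtBP corepressors. Mecom (chromosome 3, 29951296 to 30548008, minus strand) also has an internal start that yields the shorter Evi1 protein, and the table sums both forms. It was at 96.9, 76.8 and 128 normalized CPM in the Itpkb-/- pools, against 165, 146 and 178 in WT libraries, with no overlap. The log2 difference was -0.71 (SE 0.18; limma, adjusted p = 0.0881). Mecom was no longer called without Itpkb-/- library 2 (adjusted p = 0.218) or without WT library 1 (0.210), 2 (0.155) or 3 (0.330).

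Prdm16 (chromosome 4, 154316125 to 154636873, minus strand) had the lowest level of the 9 genes per kilobase of exon. It was at 51.0, 46.9 and 61.2 normalized CPM in the Itpkb-/- pools, against 76.8, 82.2 and 101 in WT libraries, and the genotypes did not overlap. The log2 difference was -0.70 (SE 0.17; limma, adjusted p = 0.0683). Without Itpkb-/- library 2 the adjusted p was 0.184, without WT library 2 it was 0.161, and without WT library 3 it was 0.306. Exons of Mecom and Prdm16 overlap an opposite-strand gene by up to 81 and 109 bases; the library kit, NuGEN Ovation V2 per the labels' protocols, does not mark strand, so such reads cannot be told apart.

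**Figure D2:**
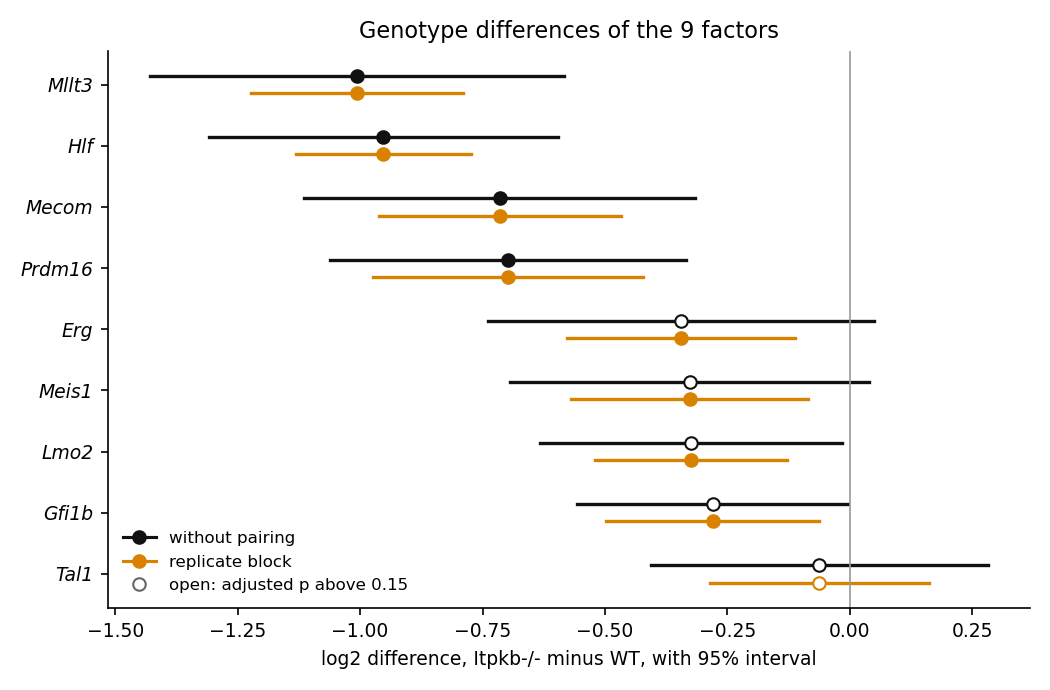
Log2 difference (Itpkb-/- minus WT, horizontal axis) of each gene with its 95% interval, from the fit without pairing (black) and with the library number as a block (orange); open points have an adjusted p above 0.15. Mllt3, Hlf, Mecom and Prdm16 are filled in both fits, and Tal1 is open in both.

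Meis1 (chromosome 11, 18879817 to 19018985, minus strand) encodes a homeodomain partner of Hox and Pbx proteins. It was at 286, 177 and 244 normalized CPM in the Itpkb-/- pools, against 307, 285 and 278 in WT libraries. Itpkb-/- library 2 was lowest, and Itpkb-/- library 1 lay within the WT range. The log2 difference was -0.33 (95% interval -0.69 to 0.04; limma, adjusted p = 0.382), and -0.14 without Itpkb-/- library 2. With the replicate block Meis1 was called (limma, adjusted p = 0.0896), as it was without Itpkb-/- library 1 (adjusted p = 0.136). Up to 1029 bases of its exons are shared with Gm37818, an unverified transcript on the same strand.

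Of the factors that bind enhancers together, Erg (chromosome 16, 95359169 to 95586593, minus strand), an ETS factor required for stem cell self-renewal, was at 107, 117 and 143 normalized CPM in the Itpkb-/- pools, against 119.9, 165 and 187 in WT libraries. WT library 1 was lower than Itpkb-/- library 3. The log2 difference was -0.34 (95% interval -0.74 to 0.05; limma, adjusted p = 0.391; 0.0637 with the replicate block). Without WT library 1 it was -0.53, still not called (adjusted p = 0.224).

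Tal1 (chromosome 4, 115056426 to 115071755, plus strand), the basic helix-loop-helix factor also called SCL, was at 215, 146 and 199.7 normalized CPM in the Itpkb-/- pools, against 199.7, 177 and 202 in WT libraries. Its Itpkb-/- libraries included both the highest and the lowest value of the 6. Itpkb-/- libraries averaged 187 ± 36.03 and WT libraries 193 ± 13.5 (SD, n = 3 each), which on the log2 scale was -0.06 (95% interval -0.41 to 0.28; limma, adjusted p = 0.901). The sign of this difference turned without Itpkb-/- library 2, to 0.10. Tal1 was the one gene of the 9 that the blocked fit did not call (adjusted p = 0.787).

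Lmo2 (chromosome 2, 103957986 to 103981878, plus strand), the LIM-only protein that bridges Tal1 and GATA factors, was at 343, 306 and 423 normalized CPM in the Itpkb-/- pools, against 447, 416 and 471 in WT libraries. Itpkb-/- library 3 lay just above WT library 2, the lowest of WT. The log2 difference was -0.32 (95% interval -0.63 to -0.02; limma, adjusted p = 0.298). The blocked fit called it (adjusted p = 0.0402), as did the fit without Itpkb-/- library 3 (adjusted p = 0.144).

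Gfi1b (chromosome 2, 28609450 to 28621982, minus strand), a zinc-finger repressor that recruits the demethylase Kdm1a, was at 153, 154 and 139 normalized CPM in the Itpkb-/- pools, against 199, 173 and 171 in WT libraries. The genotypes did not overlap, and its Itpkb-/- libraries were the most alike of the 9 genes, with a coefficient of variation of 5.55%. The log2 difference was -0.28 (95% interval -0.56 to -0.00384; limma, adjusted p = 0.316), and 0.106 was the adjusted p with the replicate block.

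In all, 5 of the 9 genes had every Itpkb-/- library below every WT library, Gfi1b and the 4 that fell, against 11.3% of all genes tested. Compared within same-numbered libraries, all but Tal1 were lower in the Itpkb-/- library in each of the 3 pairs, 8 of 9, against 21.8% of all genes tested. The median of the 9 log2 differences was -0.38 in the pair numbered 1, -0.69 in the pair numbered 2 and -0.39 in the pair numbered 3. Meis1 differed most between pairs, with -0.10, -0.69 and -0.19, while Hlf had -1.05, -0.95 and -0.86. With the number as a block 8 of 9 genes were called lower, where the share of all genes called lower was 8.97%, and 0 were called higher, where that share was 9.15%. In edgeR on reads recovered from the values 4 of 9 were called lower, against 3.58% of genes.

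**Figure D3:**
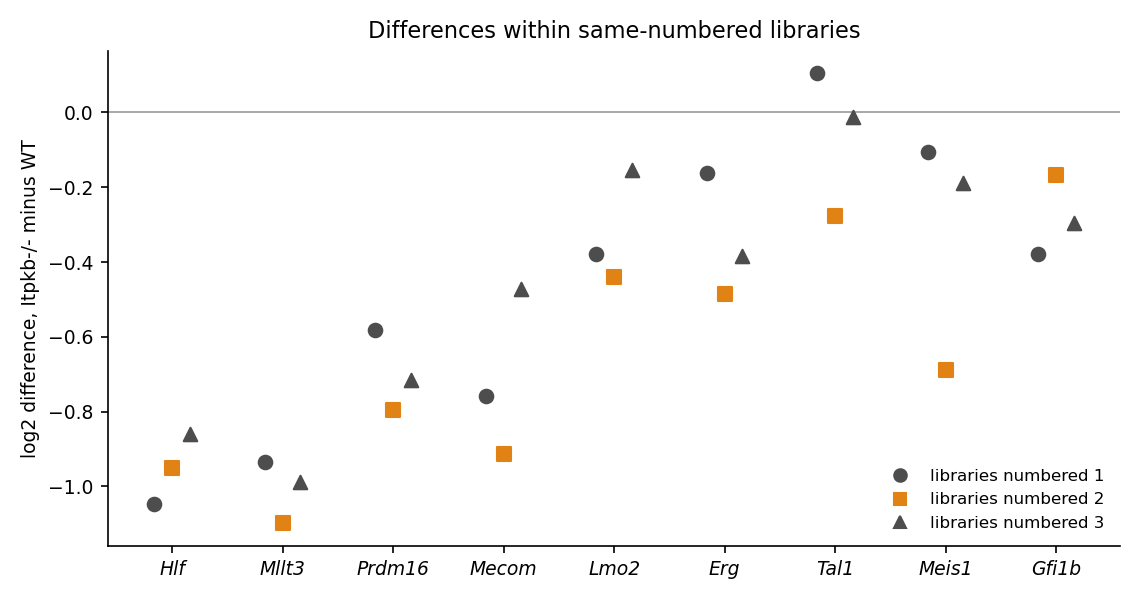
Log2 difference (vertical axis) between the Itpkb-/- and the WT library of the same number for each gene; symbols give the number, and the pair numbered 2 is orange. Hlf and Mllt3 lie at -0.86 or below in every pair, and Tal1 is above 0 in the pair numbered 1.

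The order of the levels was compared per kilobase of exon, since longer transcripts yield more reads. Lmo2 was highest, with 189 ± 31.6 normalized CPM per kb in Itpkb-/- and 235 ± 14.6 in WT libraries (SD, n = 3 each). Prdm16 was lowest, with 6.16 ± 0.855 and 10.1 ± 1.48. Hlf was second in both genotypes, at 86.7 ± 13.8 in Itpkb-/- and 168 ± 27.3 in WT libraries. Its Itpkb-/- libraries overlapped those of Gfi1b, the next in order, at 81.5 ± 4.52, while in WT libraries Gfi1b was apart at 99.3 ± 8.71. Mllt3 stood at 18.7 ± 4.33 in Itpkb-/- libraries, below and apart from Meis1 at 31.2 ± 7.27. In WT libraries Mllt3, at 37.6 ± 7.52, overlapped Meis1, at 38.4 ± 2.02. Erg and Tal1 overlapped in both genotypes and changed places, with Tal1 at 43.6 and Erg at 35.3 in Itpkb-/- and 45.0 and 45.3 in WT libraries.

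**Figure D4:**
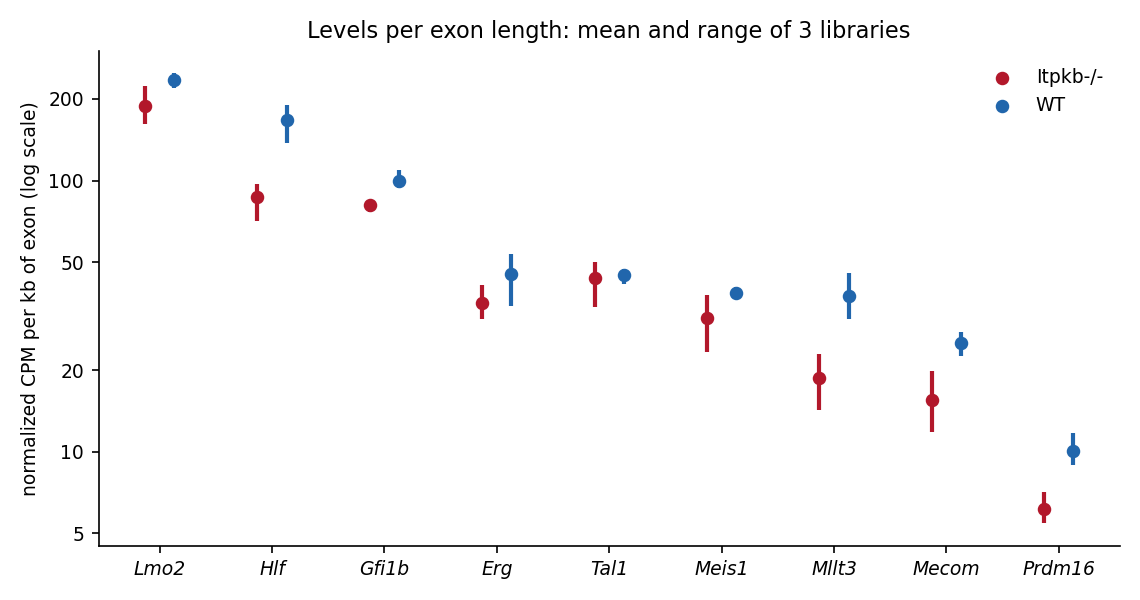
Mean (point) and range (line) of 3 libraries in normalized CPM per kb of exon (log axis) for Itpkb-/- (red) and WT (blue), genes in the order of the WT means. Lmo2 is highest and Prdm16 lowest in both genotypes, and the ranges of Hlf, Gfi1b, Mllt3, Mecom and Prdm16 do not meet between genotypes.

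Depth was ample for all 9 genes: the lowest value rests on 234 reads (Prdm16) and the highest on 5352 (Hlf). Library totals ran from 4024203 to 7470329 reads. Itpkb itself was at 10.2, 13.99 and 18.2 normalized CPM in the Itpkb-/- pools, against 22.1, 23.6 and 25.1 in WT libraries (limma, adjusted p = 0.172; 0.0541 with the replicate block), all lower in the Itpkb-/- libraries. The RNA markers of the sort were present in both genotypes, with Kit at 714 ± 144 and 866 ± 39.8 normalized CPM, Ly6a, which encodes Sca-1, at 133 ± 22.1 and 144 ± 15.7, and Slamf1, which encodes CD150, at 51.4 ± 8.38 and 50.3 ± 5.47 in Itpkb-/- and WT libraries (SD, n = 3 each). None of these 3 was called, but with the replicate block Kit was called lower (log2 difference -0.30, limma, adjusted p = 0.0600), and it was lower in the Itpkb-/- library of each same-numbered pair.

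Itpkb-/- library 2 had the lowest value of the 6 in 7 of the 9 genes, all but Erg and Gfi1b. The share of all genes tested that were lowest in this library was not counted, so 7 of 9 has no background here. The same library was high in granulocyte genes: the 12 of 12 markers found summed to 6614, 18604 and 950.0 normalized CPM in Itpkb-/- libraries 1, 2 and 3, against 3801, 2705 and 734 in WT libraries. Much of that sum was Mpo, at 588, 8728.5 and 88.5 in Itpkb-/- libraries 1, 2 and 3. Ngp (532 and 467) and Lcn2 (463 and 443) were higher in Itpkb-/- library 1 than in library 2. Of the 12, 0 passed the test in limma, 0 had an unadjusted p under 0.05, and edgeR called 0 and DESeq2 1. With the replicate block 11 rose, where 9.15% of all genes tested did. The sort took Lin- cells, and the source of this granulocyte signal was not tested. Monocyte markers, 5 of 6 found, also summed highest there, at 17.95 to 385 in Itpkb-/- and 15.8 to 54.9 in WT libraries. With the mean of the granulocyte markers as a covariate Hlf (log2 difference -0.84, limma, adjusted p = 0.0740) and Mllt3 (-0.79, 0.0650) were called, and Mecom (-0.52, 0.206) and Prdm16 (-0.56, 0.213) were not.

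Several of the 9 genes, Erg, Tal1, Lmo2 and Mecom among them, are also expressed in endothelium. The 6 endothelial markers, all found, summed to 73.6 to 98.0 normalized CPM in Itpkb-/- and to 145 to 149 in WT libraries. Of 4 tested, 2 fell, Tie1 (-0.81) and Emcn (-1.46), where 3.24% of all genes did. Blood stem cells express these 2 genes as well. Kdr, at 6.61 in Itpkb-/- and 6.73 in WT libraries, and Plvap (log2 difference 0.42) were not called. Cdh5 was between 0 and 0.524 in every library, and Flt1 averaged 2.60 in Itpkb-/- and 0.414 in WT libraries. B and T cell markers were low: the T cell list summed to 3.70 to 4.82 in Itpkb-/- and 2.69 to 9.31 in WT libraries, with Cd3g, Cd8a and Cd8b1 at 0, and Pax5 of the B cell list was at 0. That list summed to 30.1 to 35.7 in Itpkb-/- and 29.0 to 38.5 in WT libraries, of which Cd79b made up most. Megakaryocyte markers, 7 of 7 found, summed to 726 to 1594 in Itpkb-/- and 670.2 to 839 in WT libraries. Of 6 tested, 1 was called higher, Itga2b, where 2.27% of all genes were, and 3 had negative log2 differences. Erythroid markers, 10 of 10 found, summed to 154 to 655 and 190.1 to 556. Of the 10, 2 were called higher, Rhag and Epor, where 2.27% of all genes were, and 5 had negative log2 differences. Among these Hba-a1 (-1.20, limma, adjusted p = 0.582) was not called. Its values were spread widely, at 43.1, 4.82 and 3.28 in Itpkb-/- libraries and 92.8, 7.47 and 15.8 in WT libraries. Mast cell markers, 6 of 6 found, summed to 10.2 to 32.8 and 10.01 to 20.1. Of 5 tested, 2 were called higher, Fcer1a and Gzmb, where 2.27% of all genes were, and 2 had negative differences, Mcpt8 (-1.16) and Prss34 (-1.09). Gzmb was at 4.14, 5.28 and 1.31 normalized CPM in the Itpkb-/- pools and at 0 in every WT library. It passed the filter on low values only through the Itpkb-/- libraries, so its call is no support for a rise of these markers. The part of any of these in the results for the 9 genes was not tested.

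Among 10 surface and reporter markers of stem cells, 4 fell, against 3.24% of all genes tested. Fgd5, Procr and Eng were among them, and none rose. Eng, an accessory receptor for TGF-beta ligands, had 167, 152 and 163 normalized CPM in the Itpkb-/- pools, against 222, 223 and 253 in WT libraries (log2 difference -0.53, limma, adjusted p = 0.0595). Fgd5, a reporter gene of stem cells, averaged 15.3 ± 3.32 and 56.4 ± 9.33 in Itpkb-/- and WT libraries, and Procr, the gene of the protein C receptor, 19.97 ± 5.50 and 56.5 ± 6.52 (SD, n = 3 each). None of these 3 genes had overlapping genotypes.

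Beyond the 9 genes, 9 lists, called the partner lists here, held their complex partners and family members, other stem cell factors and lineage factors. Together the lists held 127 genes, all in the table, of which 113 were tested. Of these 7 fell, 6.19%, against 3.24% of all genes tested, and 0 rose, against 2.27%, at a median log2 difference of -0.08. Among the 7, Epas1 passed the filter on low values only through its WT libraries, where it was high. With the replicate block 24 fell and 7 rose, 7 being a smaller share of the 113 than the 9.15% of all genes called higher in that fit, where 8.97% were called lower. Around Tal1 and Lmo2, 2 of 14 partners fell, where 3.24% of all genes did, and with the block 4 fell and 0 rose. Those called without the block were the corepressor gene Cbfa2t3 (289 ± 5.26 normalized CPM in Itpkb-/- and 418 ± 40.9 in WT libraries; log2 difference -0.52, adjusted p = 0.0595) and Ssbp3, whose protein stabilises the adaptor Ldb1 (46.9 ± 4.17 and 74.4 ± 10.3; -0.65, adjusted p = 0.0802; SD, n = 3 each, limma). The other factors of the enhancer-binding group were not called: Gata2 was at 432 ± 60.3 and 462 ± 14.7, Runx1 at 411 ± 99.1 and 414 ± 50.7, Fli1 at 454 ± 70.9 and 394 ± 18.03, and Lyl1 at 78.5 ± 14.4 and 111 ± 7.90 in Itpkb-/- and WT libraries. Lyl1, the close relative of Tal1, had a log2 difference of -0.51 (limma, adjusted p = 0.157; 0.0185 with the replicate block).

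Around Meis1, 2 of 12 tested genes fell, where 3.24% of all genes did, and with the block 2 fell and 1 rose. Hoxa9, a DNA-binding partner, was at 19.4, 17.2 and 24.4 normalized CPM in the Itpkb-/- pools, against 31.3, 31.4 and 38.2 in WT libraries (log2 difference -0.71, limma, adjusted p = 0.124). Epas1, a hypoxia-inducible factor gene reported as a Meis1 target in mouse stem cells, was low throughout. Its values were 0.871, 0.155 and 0.917 in Itpkb-/- libraries and 4.23, 2.99 and 5.40 in WT libraries (-1.67, limma, adjusted p = 0.0636). Here 3 reads were worth 0.393 to 0.746. Only genes at 1 or more in at least 3 libraries were tested, and Epas1 reached 1 only in WT libraries. It thus passed that filter only through the group where it is high, and its call is no support for a fall around Meis1.

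None of 10 corepressor genes around Gfi1b, none of 17 elongation genes around Mllt3, none of 15 genes of the PRDM family and Mecom corepressors, and none of the 3 PAR bZIP relatives of Hlf passed the test (limma). At an unadjusted p under 0.05 there were 1 around Gfi1b, 0 around Mllt3, 3 of the PRDM list and 1 PAR bZIP gene, and edgeR and DESeq2 each called only the PAR bZIP gene Dbp among these lists. Those with the smallest p were Rcor3 (log2 difference -0.56, adjusted p = 0.240) and Phf21a (-0.40, 0.390) around Gfi1b, Mllt6 (-0.46, 0.337) and Mllt1 (-0.30, 0.454) around Mllt3, and Suv39h1 (0.47, 0.166) and Ski (-0.40, 0.274) around Mecom and Prdm16. Dbp, a PAR bZIP relative of Hlf, was at 5.66, 3.57 and 2.49 normalized CPM in the Itpkb-/- pools, against 11.4, 13.2 and 5.77 in WT libraries (-1.16, adjusted p = 0.158), and Tef, another, had -0.28 (0.627). With the block 2 of 10 genes fell around Gfi1b, 2 of 17 around Mllt3 and 2 of 15 in the PRDM list, where 2 also rose, and Dbp fell. Over all genes the blocked fit called 8.97% lower and 9.15% higher, so the counts around Mllt3 and in the PRDM list lie near the share of all genes.

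Of 15 ETS genes related to Erg, 1 fell, where 3.24% of all genes did. It was Ets2 (log2 difference -0.58, limma, adjusted p = 0.124), while Ets1 had 0.56 (adjusted p = 0.250; 0.109 with the replicate block). With the block 3 of the 15 fell and 2 rose. Of 21 tested genes for other stem cell factors, 3 fell, where 3.24% of all genes did: Gata3 (-0.86, adjusted p = 0.115), Nfix (-0.50, 0.147) and Hoxa9, and with the block 8 fell and 2 rose, where 8.97% and 9.15% of all genes did. Gata3 was at 13.3, 9.48 and 14.02 normalized CPM in the Itpkb-/- pools, against 27.1, 20.3 and 21.2 in WT libraries, with no overlap. Of 15 tested lineage factors, 0 passed in limma, edgeR or DESeq2 and 1 had an unadjusted p under 0.05, with a median log2 difference of 0.17. Those with the smallest p were Nfe2 (-0.32, adjusted p = 0.211; 0.0482 with the replicate block) and Zfpm1 (-0.22, 0.482), both factors of the erythroid and megakaryocytic lines. With the block 1 lineage factor fell, Nfe2, and 1 rose. Each of the 7 genes of the partner lists that fell lost its call when some single library was left out. The highest adjusted p (limma) then ran from 0.275 (Epas1) to 0.417 (Nfix).

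**Figure D5:**
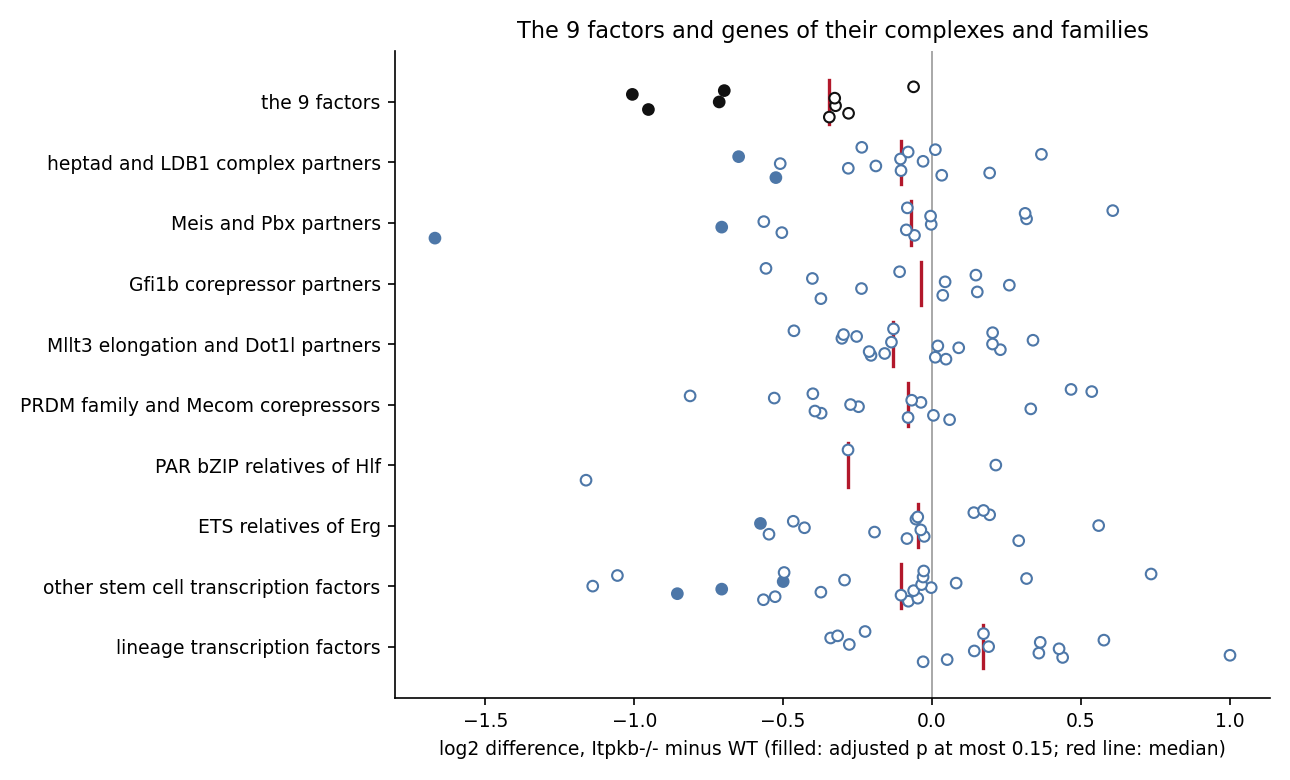
Log2 difference (Itpkb-/- minus WT, horizontal axis) of the 9 genes and of each tested gene of the 9 partner lists (rows); filled points have an adjusted p of at most 0.15 and red lines are medians. The median is -0.34 for the 9 genes, between -0.28 and -0.04 for the other lists except the lineage factors, and 0.17 for these.

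The genes whose pattern over the 6 libraries was most like the scaled mean of the 9 were Tox (Pearson r = 0.999), Erp27 (0.991), Ccnd1 (0.991), Prkd2 (0.990) and Zdhhc8 (0.990). These coefficients rank genes by likeness, were picked from all genes tested and include the genotype difference itself. Tox, which encodes an HMG-box nuclear factor of lymphoid development, was at 16.3, 8.86 and 22.1 normalized CPM in the Itpkb-/- pools, against 42.03, 33.8 and 49.5 in WT libraries. Like 7 of the 9, it was lowest in Itpkb-/- library 2. The scaled mean of the 9 is lowest there too, so this follows from the choice of Tox by r. Ccnd1, the gene of cyclin D1, was at 47.0, 32.8 and 56.9 in Itpkb-/- libraries and at 76.3, 68.0 and 97.7 in WT libraries.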

How the data were processed

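RNA of 6 libraries, 3 per genotype, was sequenced, and the table gives 1 signal value per gene and library, called normalized CPM. The authors, per the submitters' processing notes, used CASAVA 1.8.2, cutadapt, TopHat2 2.0.8b on mm10, Partek and edgeR; the series design text names other TopHat and Partek versions. The deposited signal is gene counts divided by 1 factor per library. Of the values, 100% lay within 0.01 read of a whole number, and edgeR's factors recomputed from these reads matched those of the authors. Each read was worth 0.131 to 0.249 normalized CPM.

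The test was limma 3.58.1 (R 4.3.3) with its trend option, on log2(value + 1) of genes at 1 or more in at least 3 libraries, adjusted over 12008 genes by Benjamini-Hochberg; all 9 genes passed this filter. It was also run on simulated counts. These had the same spread setting for all genes and no pairing or outlying library, so they do not test it under the conditions of these data. On the recovered reads edgeR 4.0.16 called 692 genes and DESeq2 1.42.0 called 883, and each called the same 4 of the 9. The members, partner lists and marker lists were chosen with earlier results of these data known. Named partner genes are those called and the 2 with the smallest p in each list, and genes of like pattern are the 5 highest in r; other named list members (Gata2, Runx1, Fli1, Lyl1 and the markers) were chosen after their values were seen. Some members of these lists are counted but not reported here by name. Each pool is a separate group of mice, so replicates are biological. Same-numbered libraries deviated together (correlations across genes of 0.296, 0.268 and 0.284), and differently numbered ones gave -0.227 to -0.0475. Deviations sum to 0 within a genotype, so these correlations are tied to each other. The numbers were taken as pairs from the data and not from a label. Since the same data chose the pairing, p-values of the blocked fit may be too small. The replicate block is reported for the 9 genes, for some other named genes and, as counts, for the partner lists and granulocyte markers. Within a genotype, libraries differed by 5.93 to 25.2 chi-square per degree of freedom, so none repeats another. Exon lengths and positions are from GENCODE M21.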

Additional observations from a re-analysis of the deposited data

How the results depend on the processing

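The calls rest on few libraries, and their number changes with the pairing. Leaving out 1 library, the count of the 9 genes called lower ranged from 0 to 5 and the count of all genes called from 74 to 837, the lowest of both without WT library 3. With the replicate block 2176 genes and 8 of the 9 were called. The strict filter on a mean above 16 gave 343 genes and the same 4 of the 9. Without both libraries numbered 2 there were 139 genes and 2 of the 9, Hlf and Mllt3; with the granulocyte covariate 195 and 2, again Hlf and Mllt3; and at an adjusted p of at most 0.05, 182 and 2, the same genes. None of the 9 was called higher in any fit. The sign of Tal1 turned without Itpkb-/- library 2 (0.10), without both libraries numbered 2 (0.0455) and with the covariate (0.0460), and ranged from -0.17 to 0.10 without 1 library; the cause was not tested. Other pseudocounts, no filter, scaling by plain read totals, DESeq2 size factors, edgeR and DESeq2 each called the same 4 of the 9, and these scalings moved the median of all genes by at most 0.034. The lowest value of the 9 genes rests on 234 reads; no comparison of depth with the number of libraries was run.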
